A study of Mus musculus with 7 samples.

Results

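The genes described here are 10 monocyte and myeloid signalling genes, Csf1r, Tyrobp, Fcer1g, Ly6c2, Plac8, Treml4, Fcgr1, Fcgr4, Lyz2 and Itgam. They were found by name among the 32544 genes of the deposited expression table, and all 10 were in it. The RNA came from whole abdominal aorta of Apoe-/- males. Loss of apolipoprotein E leads to atherosclerotic plaques. All mice carried that deletion and were fed a high-fat diet for 12 weeks, while 50 mg/kg of ITA-LNP or of control-LNP was injected intravenously 1 time a week. The usual meaning of LNP is lipid nanoparticle. ITA is read here as itaconate, a metabolite of activated macrophages that the series title names. The ITA-LNP group had 3 libraries and the control-LNP group 4. The sources used here do not give the ages of the mice. Nor do they state that 1 library is 1 mouse, so p-values measure only the spread among the libraries, which may be technical in part.

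Monocytes are made in the bone marrow, circulate in blood and enter the plaque, where they become macrophages. Classical monocytes of the mouse carry Ly6C, while patrolling monocytes have lost it and crawl along the endothelium. Both carry the receptor for colony-stimulating factor 1 (Csf1r). Both also sense their surroundings through receptors without signalling tails of their own. Those receptors pair with the small adaptors DAP12 (Tyrobp) and the Fc receptor gamma chain (Fcer1g). The adaptors carry the phosphorylated motif known as ITAM, to which the kinase Syk binds. Neutrophils share many of these genes, among them Tyrobp, Fcer1g, Fcgr4, Lyz2 and Itgam, and tissue macrophages keep Csf1r, Tyrobp, Fcer1g, Fcgr1 and Lyz2.

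Many promoters of myeloid genes hold purine-rich sites of the Ets factor PU.1, the product of Spi1. The promoters of 4 members are shown. They are those of the 3 genes with the lowest ITA-LNP level relative to control-LNP and that of the most abundant member, Lyz2. Of these genes, Treml4 and Lyz2 did not pass the test described below. Each promoter is the last 150 bases before the first annotated exon base, 5′ to 3′ on the gene's strand, from RefSeq on GRCm38.p6 (mm10). Capitals mark GAGGAA, the core of PU.1 sites, or its reverse complement TTCCTC, and the longer form GAGGAAGT where the whole of it matched; other matches lie outside these stretches.
Ly6c2 (chr15:75111972-75112121, minus strand): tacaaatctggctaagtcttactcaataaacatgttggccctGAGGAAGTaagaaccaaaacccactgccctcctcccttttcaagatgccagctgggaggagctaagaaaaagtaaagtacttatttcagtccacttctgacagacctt
Plac8 (chr5:100572246-100572395, minus strand): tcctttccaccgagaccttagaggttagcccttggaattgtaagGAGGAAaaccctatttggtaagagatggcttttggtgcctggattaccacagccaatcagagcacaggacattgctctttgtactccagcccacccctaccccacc
Treml4 (chr17:48264145-48264294, plus strand): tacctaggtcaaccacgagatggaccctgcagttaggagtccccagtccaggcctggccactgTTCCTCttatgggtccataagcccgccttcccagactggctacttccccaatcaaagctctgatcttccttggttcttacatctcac
Lyz2 (chr10:117282322-117282471, minus strand): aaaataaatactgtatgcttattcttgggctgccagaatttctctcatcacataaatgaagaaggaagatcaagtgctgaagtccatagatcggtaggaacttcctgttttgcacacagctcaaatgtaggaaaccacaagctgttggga
In the 250 bases before the RefSeq start, searched on both strands, 6 of 8 members had GAGGAA, against 23.3% of all 32851 promoter windows. These were Ly6c2, Plac8, Treml4, Fcgr1, Fcgr4 and Itgam, while Fcer1g and Lyz2 had no match in that window. The windows of Csf1r and Tyrobp were not searched, so the count covers only 8 of the 10 members. GAGGAAGT, which contains GAGGAA, was in the windows of Ly6c2 and Fcgr4, against 2.44% of all windows. The interferon gamma activated site TTCNNNGAA was in that of Fcgr1, against 7.02%. These matches are a description of the letters and were not set against the expression values by any test.

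The libraries held 5077073 to 7281721 reads. Levels are in CPM, reads per 1000000 reads of the library, and the limit that a count of 0 allows, 3 reads, was 0.412 to 0.591 CPM, for counting error only. The libraries are 3′ mRNA libraries, so gene length does not enter a level. Control-LNP replicate 2 stood apart. Of the genes at 20 to 100 CPM on average in the other control-LNP libraries, 41.9% were under 1 CPM in it, against 1.03% to 1.29% for the same count in control-LNP replicates 1, 3 and 4. In the ITA-LNP libraries that share was 3.27% to 6.43%. The markers of the vessel wall were also far apart between the groups: the 10 smooth muscle markers summed to 17775 to 21643 CPM with ITA-LNP and to 542 to 846 CPM in the control-LNP libraries, which carry the same tissue label. The tissue make-up of the libraries thus went with the group. Treatment and tissue make-up cannot be told apart in any difference below, and "lower" or "higher with ITA-LNP" names the group only. In whole tissue, fewer cells of a type and less RNA per cell cannot be told apart either.

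Of the 10 members, 5 were lower with ITA-LNP and none was higher at an adjusted p under 0.05 (limma-trend, Benjamini-Hochberg adjustment over the 12636 genes tested). The share of all tested genes that were lower was 5.15%, and 10.3% were higher. The 5 were Plac8, Ly6c2, Fcer1g, Csf1r and Tyrobp. At an unadjusted p under 0.05 there were 7 members, with Itgam and Treml4. The share of all tested genes at that looser threshold is not given here. The count of 7 is therefore not to be set against the shares above. For 6 members every ITA-LNP value lay below every control-LNP value, which held for 10.7% of tested genes. The median log2 fold change of the members was -2.35, and that of all tested genes 0.15. Changed genes in either direction were 15.5% of those tested. Without control-LNP replicate 2, 7 members were lower, Treml4 and Itgam being added, while 16% of 12893 genes were lower and 31.4% changed.

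**Figure D1:**
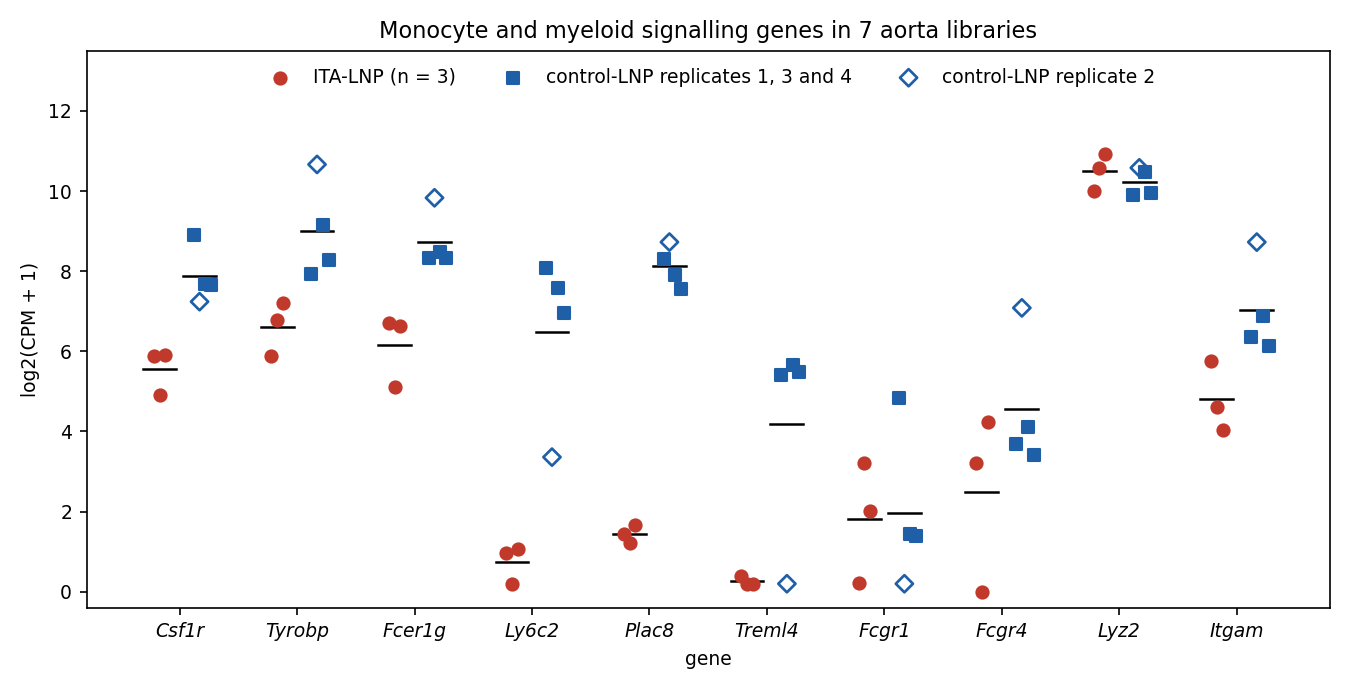
Level of each gene in each library as log2(CPM + 1), with ITA-LNP libraries as red circles, control-LNP replicates 1, 3 and 4 as blue squares and control-LNP replicate 2 as an open diamond; black lines are group means over 3 and 4 libraries. Plac8 and Ly6c2 are near the bottom of the scale in all ITA-LNP libraries, Lyz2 has the highest mean in both groups, and control-LNP replicate 2 is the lowest control for Csf1r, Ly6c2, Treml4 and Fcgr1 and the highest for Tyrobp, Fcer1g, Plac8, Fcgr4, Lyz2 and Itgam.

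The libraries differed in most blood cell markers as well. The pan-leukocyte genes, which nearly all white cells express, summed to 394 to 454 CPM in the ITA-LNP and 4315 to 6079 CPM in the control-LNP libraries, and 8 of 10 were lower. Neutrophil markers summed to 93.8 to 249 CPM against 962 to 27595 CPM, with 5 of 11 tested markers lower. Cd177 was at 0 reads in all ITA-LNP libraries and in control-LNP replicate 2. Control-LNP replicate 2 held the highest neutrophil sum, 27595 CPM, and replicate 3 the next, 10404 CPM. S100a8 and S100a9 gave 11809 and 10638 CPM of the former and 5981 and 3361 CPM of the latter. Camp, Ltf and Ngp were also at 0 reads in replicate 2, while each other marker of the list was highest there among the controls. Lcn2 was at 47.7 to 125 CPM with ITA-LNP, above control-LNP replicates 1, 3 and 4 (3.77 to 16.5 CPM). Dendritic cell markers summed to 76.2 to 131 CPM against 326 to 428 CPM, with 1 of 10 lower. The resident macrophage markers went the other way, from 42.5 to 117 CPM in the control-LNP libraries to 684 to 771 CPM with ITA-LNP. Of their 11 tested genes 7 were higher. Folr2 and Vsig4 were at 0 reads in all control-LNP libraries and had only 9 and 1 reads in all ITA-LNP libraries together. Lipid-laden macrophage markers, several of which other wall cells express, summed to 9025 to 12825 CPM against 980 to 1481 CPM, with 8 of 10 higher and 1 lower. Fibroblast markers summed to 19185 to 22272 CPM against 124 to 294 CPM, with 9 of 10 higher. The part of these cell types in the members' differences was not tested.

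**Figure D2:**
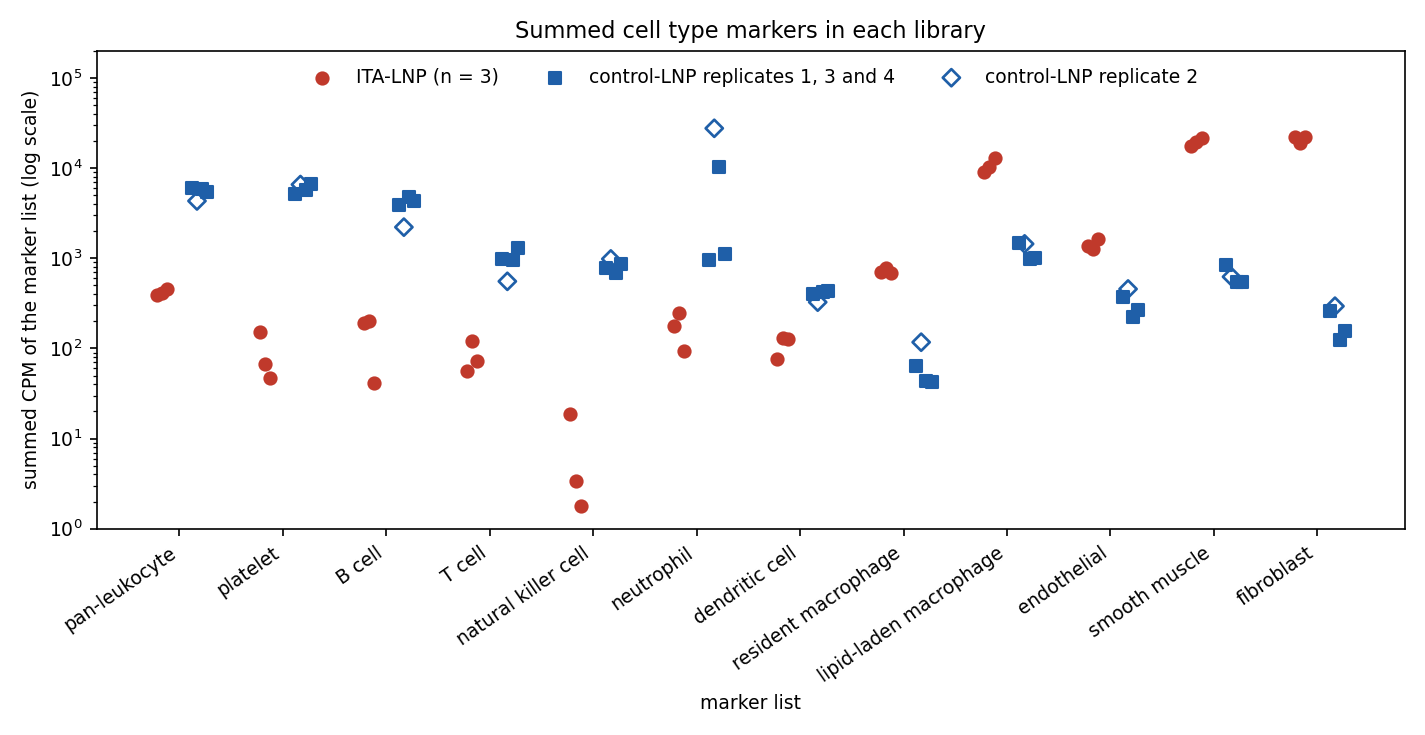
Summed CPM of the marker lists in each library on a log axis, with symbols as in the plot of members by library. The leukocyte, platelet and lymphocyte lists are lower and the macrophage and wall lists higher in the ITA-LNP libraries, and the neutrophil list spans 962 to 27595 CPM among the control-LNP libraries.

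Among the monocyte identity genes, Ly6c2 (chromosome 15, 75108158 to 75111970), the Ly6C antigen of classical monocytes, was at 0.941, 0.147 and 1.099 CPM in ITA-LNP replicates 1 to 3. In control-LNP replicates 1 to 4 it was at 267, 9.27, 190.2 and 122 CPM. All ITA-LNP libraries were near the limit of detection, and control-LNP replicate 2 was the lowest control. On the log2 scale the change was -5.75 ± 1.16 (SE; adjusted p = 0.00814, limma), and -6.79 without control-LNP replicate 2. The reads pooled over groups were 15 against 3154, a ratio of control-LNP over ITA-LNP of 186 with a 95% counting interval of 113 to 333, which leaves out the spread between libraries. With voom on the recovered reads, Ly6c2 did not pass (-6.88, adjusted p = 0.118).

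Ly6c2 has a close paralog, Ly6c1, which endothelium expresses and which was chosen for comparison after its values were seen. Ly6c1 was at 453, 526 and 503 CPM with ITA-LNP, and the control-LNP values were 15.8, 2.39, 17.9 and 22.3 CPM, a log2 fold change of 5.30 ± 0.72 (adjusted p = 0.00119, limma). The paralogs thus differed between the groups in opposite directions. The counting could have split reads between them, and no source used here says how it treated shared reads.

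Plac8 (chromosome 5, 100553725 to 100572245) encodes a small cysteine-rich protein that is high in monocytes and is also expressed by other leukocytes. It was at 1.73, 1.33 and 2.20 CPM with ITA-LNP, and the control-LNP values were 316, 422, 239.8 and 187 CPM. The groups did not overlap, and control-LNP replicate 2 was the highest library, in contrast to Ly6c2. Plac8 was lower with a log2 fold change of -6.68 ± 0.59 (adjusted p = 0.000128, limma), and Plac8 kept its call in all 21 alternatives, with adjusted p from 1.26e-07 to 0.00736.

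Treml4 (chromosome 17, 48264295 to 48275360), a receptor of the TREM family found on patrolling monocytes and some dendritic cells, had 2, 1 and 1 reads in the ITA-LNP libraries. In control-LNP replicates 1, 3 and 4 it was at 41.2, 49.8 and 44.0 CPM, a narrow range, and in replicate 2 it had 1 read, 0.150 CPM. Over all libraries its log2 fold change was -3.93 ± 1.38 and did not pass (adjusted p = 0.0930, limma). With that library left out Treml4 was lower, by a log2 fold change of -5.26 (adjusted p = 0.000606). The pooled reads were 4 against 737, a ratio of 163 with a counting interval of 63.5 to 601. Genes at the level of Treml4 in the other control-LNP libraries were often under 1 CPM in replicate 2, as given above, and the share of this in its low value was not tested.

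Other genes of the monocyte subsets were counted from lists. Of 17 classical monocyte genes, 6 were lower and 2 higher, with a median log2 fold change of -2.02. The chemokine receptor Ccr2, through which monocytes leave the marrow, was at 6.74, 7.52 and 2.61 CPM against 270.04, 92.5, 153 and 166 CPM (-4.69 ± 0.64, adjusted p = 0.00126, limma). The fibronectin gene Fn1, which smooth muscle and fibroblasts also express, was higher, at 4055 against 43.3 CPM. The other higher gene was Vcan, named after its values were seen, at 174 against 7.02 CPM. Summed, the classical list was higher with ITA-LNP, at 4813 to 5599 CPM against 1781 to 2648 CPM, Fn1 included. Of 15 patrolling monocyte genes, 8 were lower and 1 higher, with a median of -3.27. The lower ones were led by the integrin chain Itgal (0.677 against 168 CPM), the transcription factor Pou2f2 (8.62 against 389 CPM) and Spn, or CD43 (2.46 against 154 CPM). Lymphocytes express these as well. The 1 higher gene was Cd36, named after its values were seen, at 898 against 30.3 CPM. Summed, the patrolling list overlapped between the groups, at 1219 to 1483 CPM with ITA-LNP and 1041 to 1618 CPM with control-LNP. T cell markers summed to 55.7 to 121 CPM with ITA-LNP and 554 to 1303 CPM with control-LNP, with 6 of 10 lower, and B cell markers to 41.2 to 201 against 2211 to 4782 CPM, with 8 of 10 lower. Their part in these lists was not tested.

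Csf1r (chromosome 18, 61100598 to 61132149), a receptor tyrosine kinase that monocytes and macrophages carry, was at 57.9, 29.0 and 58.6 CPM with ITA-LNP. With control-LNP it was at 477, 150.1, 206 and 201 CPM. The groups did not overlap, and replicate 1 was the highest and replicate 2 the lowest of the control-LNP libraries. The means of 48.5 ± 16.9 and 258 ± 148 CPM (SD, n = 3 and 4) were 5.33-fold apart, with a log2 fold change of -2.31 ± 0.52 (adjusted p = 0.0139, limma). Csf1r did not pass without ITA-LNP replicate 2 (-1.98, adjusted p = 0.0545) or with voom (-2.28, adjusted p = 0.0514). Csf1r overlaps Hmgxb3 on the other strand, and no source used here says whether counting used strand.

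The ligand of Csf1r went in the opposite direction. Csf1, the growth factor that wall cells make for macrophages, was at 85.6, 169 and 129 CPM with ITA-LNP, and the control-LNP values were 9.65, 0.897, 9.42 and 9.84 CPM (4.17 ± 0.84, adjusted p = 0.00796, limma). Of the 7 tested colony-stimulating factors and receptors it was the 1 that was higher. The 1 that was lower was Csf3r, the receptor for the granulocyte factor, with 6 reads in all ITA-LNP libraries together and 10.7 to 305 CPM in the control-LNP libraries, the highest being replicate 2. Csf2rb2 was at 43.0, 24.2 and 46.8 CPM against 19.1, 10.9, 6.92 and 7.54 CPM and did not pass (adjusted p = 0.155, limma).

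Of the adaptors, Tyrobp (chromosome 7, 30413760 to 30417585) was at 57.6, 108 and 147 CPM with ITA-LNP, and the control-LNP values were 244, 1621, 563 and 307 CPM. The groups did not overlap, and control-LNP replicate 2 was far above the other controls. Tyrobp was lower, with a log2 fold change of -2.39 ± 0.64 (adjusted p = 0.0322, limma) and of -1.83 without replicate 2 (adjusted p = 0.0132). It did not pass when any 1 ITA-LNP library or control-LNP replicate 3 was left out, nor without the filter, with median centring, without the trend or with voom (adjusted p from 0.0587 to 0.146). The 3′ end of Tyrobp lies 126 bases from that of Hcst, which encodes the adaptor DAP10 on the other strand and was chosen for comparison after its values were seen. Hcst was at 0.739 against 242 CPM, a log2 fold change of -7.10 (adjusted p = 0.000116, limma).

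Fcer1g (chromosome 1, 171229572 to 171234365), the common gamma chain of Fc receptors, was at 103, 33.5 and 98.5 CPM with ITA-LNP, and the control-LNP values were 319.7, 909.6, 357 and 319.0 CPM. Replicates 1, 3 and 4 of the control-LNP group were close together and replicate 2 was above them. Fcer1g was lower, with a log2 fold change of -2.59 ± 0.54 (adjusted p = 0.00953, limma) and of -2.23 without replicate 2, and did not pass with median centring (adjusted p = 0.0930). Among the members, Fcer1g was most like Itgam, with a root mean square difference of the centred log2 levels over the 7 libraries of 0.70, and Tyrobp next, with 0.77.

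Of 17 tested receptors that pair with these adaptors, 5 were lower and none higher, with a median log2 fold change of -3.22. The first by p were Klrk1, the NKG2D receptor of natural killer and T cells (0.448 against 152 CPM), Gp6, the collagen receptor of platelets (0.776 against 168 CPM), and Clec4e, or Mincle, a lectin of myeloid cells (-4.54 ± 1.09, adjusted p = 0.0188, limma). Klrk1 and Gp6 are receptors of other cell types, and the markers of those were lower as well: natural killer cell markers summed to 1.79 to 18.8 against 692 to 982 CPM with 4 of 10 lower, Klrk1 being 1 of the list, and platelet markers to 46.4 to 153 against 5147 to 6740 CPM, with 9 of 10 lower. Of 13 inhibitory and other Fc or paired receptors, 1 was lower and 1 higher. These were Clec4a3 (-4.82 ± 0.89, adjusted p = 0.00505) and Fcrls, a gene of tissue macrophages, at 12.2, 3.54 and 24.7 CPM against 0.492 to 0.598 CPM (2.89 ± 0.84, adjusted p = 0.0457). Pirb, an inhibitory receptor, had a log2 fold change of -2.64 ± 0.81 and did not pass (adjusted p = 0.0551).

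Below the receptors, 13 of 20 kinases and signal molecules were lower and none higher, with a median of -3.63. Syk, the kinase that binds the phosphorylated adaptors, was at 15.4, 0.442 and 1.79 CPM against 148 to 215 CPM (-5.45 ± 0.85, adjusted p = 0.00224, limma). The Src family kinase Lyn was at 61.5 against 641 CPM (-3.43 ± 0.39, adjusted p = 0.000484). Cybb, the catalytic subunit of the phagocyte oxidase, was at 68.0 against 406 CPM (-2.51 ± 0.41, adjusted p = 0.00290). Btk and Pik3ap1, named after their values were seen, had 0 reads in all ITA-LNP libraries, and Pik3ap1 had 0 in control-LNP replicate 2 too. B cells use Syk, Lyn and Btk too, and their markers are given above. Without control-LNP replicate 2, 17 of the 20 were lower and none higher, and of the receptors that pair with the adaptors 10 were lower and none higher.

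The Fc gamma receptors among the members were measured with few reads. Fcgr1 (chromosome 3, 96282909 to 96293969), the high-affinity receptor for IgG of monocytes and macrophages, was at 0.157, 8.25 and 3.02 CPM with ITA-LNP, and the control-LNP values were 27.4, 0.150, 1.73 and 1.64 CPM. Both groups ran from 1 read upwards and overlapped widely. Its log2 fold change was -0.16 ± 1.23 (adjusted p = 0.956, limma), with a 95% interval from -2.93 to 2.60 that allowed changes of several-fold either way, and its sign turned without control-LNP replicate 1 (0.79) or ITA-LNP replicate 1 (0.64).

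Fcgr4 (chromosome 1, 171018920 to 171029761), a receptor for IgG2 antibodies on patrolling monocytes, neutrophils and macrophages, was at 8.31, 0 and 18.0 CPM with ITA-LNP. With control-LNP it was at 11.8, 135, 16.2 and 9.68 CPM. The groups overlapped, and control-LNP replicate 2, the library with the highest neutrophil sum, was far above the rest. Its change of -2.08 ± 1.298 on the log2 scale did not pass (adjusted p = 0.333, limma), and its 95% interval was -4.99 to 0.83. With ITA-LNP replicate 2 left out the value was -0.84, with control-LNP replicate 2 left out -1.24, and it ranged to -2.96 over the other libraries left out.

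Lyz2 (chromosome 10, 117277331 to 117282321), the lysozyme of monocytes, macrophages and neutrophils, was the most abundant member in 6 of 7 libraries. It was at 1015.0, 1531.4 and 1953 CPM with ITA-LNP, and the control-LNP values were 962, 1528, 1416 and 993 CPM. The ranges overlapped over most of their length. The means of 1499.9 ± 469.9 and 1225 ± 289 CPM (SD, n = 3 and 4) gave a log2 fold change of 0.27 ± 0.27 (adjusted p = 0.580, limma). Its 95% interval was -0.34 to 0.89, the narrowest among the members. Its paralog Lyz1 had 3 reads in all ITA-LNP libraries and 71 in the control-LNP libraries.

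Itgam (chromosome 7, 128062640 to 128118491), the CD11b chain of the integrin Mac-1 on monocytes, neutrophils and natural killer cells, was at 53.2, 23.6 and 15.5 CPM with ITA-LNP, and the control-LNP values were 81.0, 422, 116 and 68.9 CPM. The groups did not overlap, and replicate 2 was again the highest control. Itgam had a log2 fold change of -2.21 ± 0.74, which was not past the threshold (adjusted p = 0.0786, limma). With replicate 2 left out, Itgam was lower, with a log2 fold change of -1.64 (adjusted p = 0.0352). Itgam overlaps the predicted gene Gm49368 on the same strand, so that reads could be split between them. Its partner chain Itgb2, shared by all leukocyte integrins of this class, was lower, at 115 against 601 CPM (-2.38 ± 0.30, adjusted p = 0.000879). Of the 8 tested integrin chains, partners and ligands, 3 were lower and 1 higher. Among the lower ones was Fermt3, or kindlin-3, which activates integrins in blood cells, at 0.746 against 163 CPM. The higher gene was C3, named after its values were seen, at 144 against 4.91 CPM (4.75 ± 0.78, adjusted p = 0.00293, limma).

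**Figure D3:**
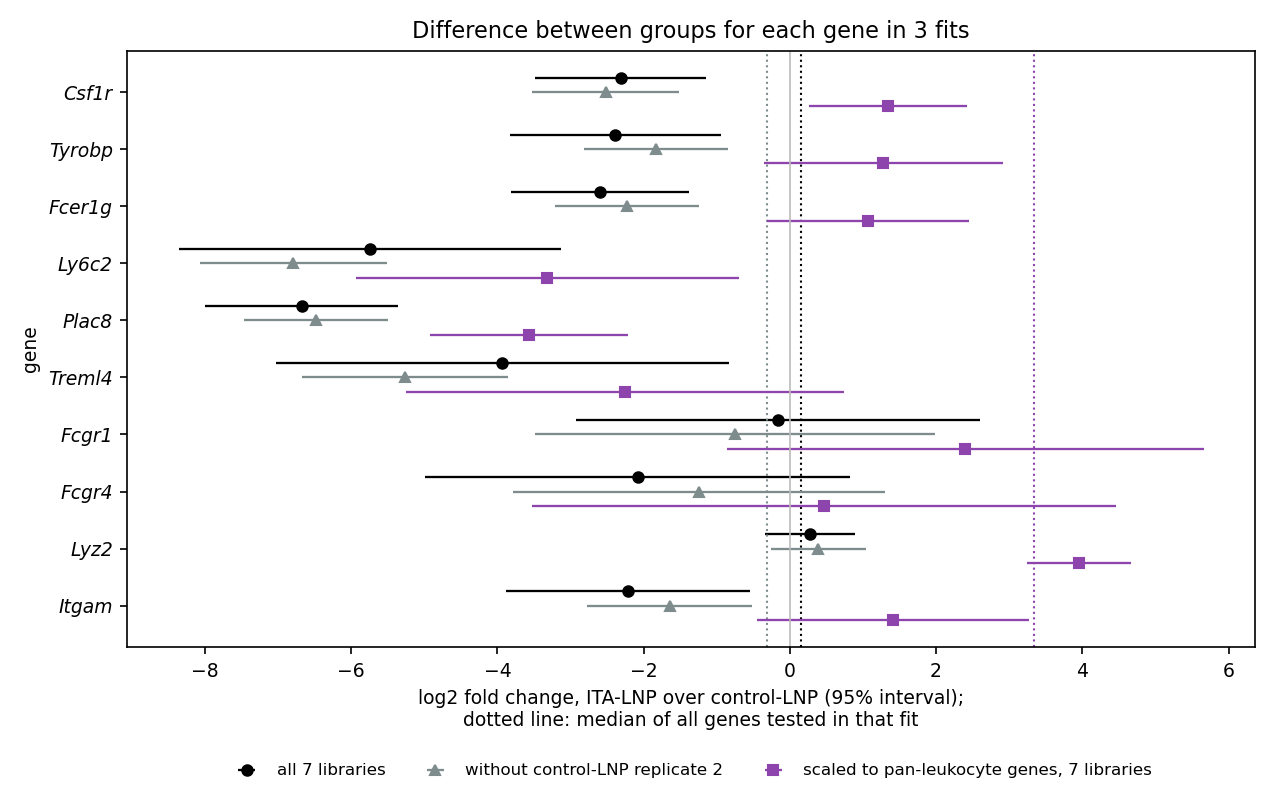
Log2 fold change of ITA-LNP over control-LNP with its 95% interval for each gene, in the fit of all 7 libraries (black circles), without control-LNP replicate 2 (grey triangles) and after scaling to the pan-leukocyte genes (purple squares); dotted lines are the medians of all genes tested, 0.15, -0.31 and 3.35. Plac8 and Ly6c2 lie below 0 in each of these fits, and the intervals of Fcgr1 and Fcgr4 cross 0 in every fit.

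The levels of members were next compared within a library, which does not depend on the share of reads from cells that express neither gene. The log2 ratio of Ly6c2 to Csf1r, on CPM + 1, was -4.92, -4.71 and -4.83 with ITA-LNP and -0.83, -3.88, -0.11 and -0.71 with control-LNP. The groups did not overlap, and control-LNP replicate 2 lay nearest to ITA-LNP. The difference of -3.44 had p = 0.0571 in an exact two-sided permutation test over 35 splits (adjusted p = 0.0952 over 5 ratios), where the smallest possible p is 0.0286. Since Ly6c2 was at or below about 1 CPM with ITA-LNP, the added 1 CPM set the ITA-LNP ratios in large part, and the difference was -4.34 with 0.25 CPM added and -2.13 with 4 CPM.

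The log2 ratio of Lyz2 to Csf1r, both well above the limit of detection in all libraries, was 4.11, 5.67 and 5.03 with ITA-LNP and 1.01, 3.34, 2.78 and 2.30 with control-LNP. Every ITA-LNP library was above every control-LNP library, and the difference was 2.58 (p = 0.0286, exact two-sided permutation test, the smallest it can give; adjusted p = 0.0952 over 5 ratios). Per read of Csf1r, Lyz2 was therefore higher in 3 of 3 ITA-LNP libraries than in any control-LNP library. The ratio of Tyrobp to Fcer1g, the adaptors, was -0.82, 1.66 and 0.57 against -0.39, 0.83, 0.66 and -0.06, overlapping ranges with a difference of 0.21 (exact p = 0.8). The ratio of Fcgr4 to Fcgr1 ranged from -3.21 to 3.01 with ITA-LNP and from -1.15 to 6.88 with control-LNP (exact p = 0.457). That of Treml4 to Ly6c2 was -2.67, -3.16, -1.91 and -1.46 in the control-LNP libraries. With ITA-LNP Treml4 had 1 or 2 reads a library, so its ratio there came from the added 1 CPM and is not compared.

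**Figure D4:**
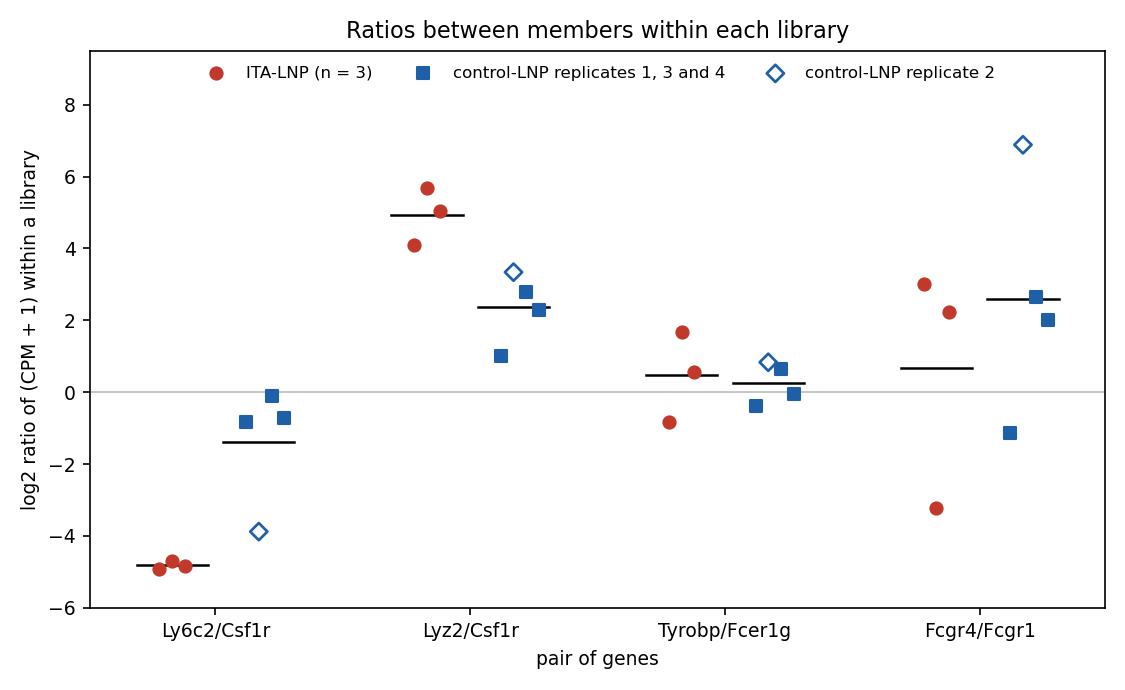
Log2 ratio of (CPM + 1) between pairs of members within each library, with group means as black lines and symbols as in the plot of members by library. The ratios of Ly6c2 to Csf1r and of Lyz2 to Csf1r do not overlap between groups, while those of Tyrobp to Fcer1g and of Fcgr4 to Fcgr1 do.

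Relative to the summed pan-leukocyte genes, the members differed among themselves. Per 1000 CPM of those genes, Plac8 was at 4.16 ± 0.82 with ITA-LNP and 56.4 ± 28.6 with control-LNP (SD, n = 3 and 4), and Ly6c2 at 1.72 ± 1.18 and 25.3 ± 17.8. Lyz2 was at 3544 ± 882 and 235 ± 87.5, and Csf1r at 116 ± 39.7 and 46.4 ± 21.4. The groups did not overlap for Plac8 and Lyz2 but did for Ly6c2 and Csf1r. Ly6c2 was at 2.39 and 2.42 in ITA-LNP replicates 1 and 3 and 2.15 in control-LNP replicate 2. Csf1r was at 71.1 in ITA-LNP replicate 2 and 78.4 in control-LNP replicate 1. In the fit on this scale, Plac8 (-3.56 ± 0.60, adjusted p = 0.000914, limma) and Ly6c2 (-3.32 ± 1.16, adjusted p = 0.0336) were lower, while Lyz2 (3.95 ± 0.31, adjusted p = 1.76e-05) and Csf1r (1.34 ± 0.48, adjusted p = 0.0367) were higher. This scaling raised the median of all genes to 3.35, with 59.6% of 13210 genes changed, 58.5% higher and 1.09% lower, so 2 of 10 members higher was below that share. Against the median of all genes, Lyz2 differed by 0.61 and Csf1r by -2.005. Tyrobp, Fcer1g, Itgam, Fcgr1, Fcgr4 and Treml4 did not pass. Without control-LNP replicate 2, 5 members were higher and 3 lower on this scale, where 58.4% of 13497 genes changed, 56.3% being higher and 2.04% lower, so the members' share of higher genes was near that of all genes. The call of Csf1r was lost on leaving out any of these libraries, ITA-LNP replicates 1 and 3 and control-LNP replicates 3 and 4, and with Ptprc alone as the reference (adjusted p from 0.0893 to 0.261). That of Ly6c2 was lost on leaving out ITA-LNP replicate 1 or 2, or any control-LNP library but replicate 2 (adjusted p from 0.0539 to 0.108).

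Among the myeloid transcription factors, 3 of 13 tested were lower and 2 higher, with a median of -0.97. Spi1, the gene of PU.1, was at 0, 5.75 and 0.275 CPM with ITA-LNP, and the control-LNP values were 59.3, 112, 61.2 and 33.0 CPM (-4.91 ± 0.94, adjusted p = 0.00623, limma). Irf8, needed for monocytes and also expressed in B cells, was at 31.3 against 255 CPM (-3.03 ± 0.47, adjusted p = 0.00216). Klf4, which monocytes share with endothelium and smooth muscle, was higher, at 966 against 146 CPM (2.93 ± 0.49, adjusted p = 0.00301). In the ITA-LNP libraries endothelial markers summed to 1268 to 1628 CPM, against 222 to 456 CPM, with 7 of 10 higher. Without control-LNP replicate 2, 9 of 17 classical monocyte genes were lower and 4 higher, and 9 of 15 patrolling monocyte genes were lower and 3 higher. Of 13 transcription factors, 3 were lower and 3 higher in that fit. The shares of all 12893 genes tested in it were 16% lower and 15.4% higher.

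Across the 7 libraries, the genes most like each member were found by the root mean square difference of centred log2(CPM + 1). Plac8 was nearest to Ltb, a cytokine gene of lymphocytes, Fermt3 and Itgal (0.25, 0.26 and 0.31). Among the genes nearest to Ly6c2 were Fcho1 and Tbc1d10c (0.65 and 0.67). Treml4 was nearest to Arid3b, Fcmr, the IgM receptor of B cells, and Serpina3g (0.10, 0.12 and 0.14), each of which shared its low value in control-LNP replicate 2. Csf1r was nearest to the alpha globin gene Hba-a1 at 0.21, and Lyz2 to Vps29, Atp6ap1 and Actg1 (0.20, 0.20 and 0.23). The neighbours of Fcer1g were H2-Q4, Rnf19b and Ap1g2, at 0.24 to 0.33. These likenesses rest on 7 libraries in 2 groups and on which libraries were high or low, and they say nothing of shared function.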

How the data were processed

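Values were deposited by the authors as log10 values in 1 table of 32544 genes and 7 libraries. The antilog less 1 summed to 1000000 in each column, so values were read as log10(CPM + 1), and 100% of the nonzero values were whole reads within a tolerance of 0.01. Libraries were QuantSeq 3′ mRNA libraries from 500 ng of total RNA, per the labels' protocols, and the submitters' processing notes name the build mm10. Aligner, counter, annotation and any use of strand or molecular identifiers: not given in the sources used here. Groups and replicate numbers came from the sample titles, which write NP for LNP. The members and gene lists were chosen with earlier results of these data known.

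Values were converted to log2(CPM + 1), a scale that understates the change of low genes, and 12636 genes with a mean of at least 1 were tested with limma-trend (limma 3.58.1, R 4.3.3), ITA-LNP against control-LNP, with no covariate. A positive log2 fold change is higher with ITA-LNP, and an error after ± is an SE unless SD is written. The procedure was tested on simulated counts. Alternatives were the filter, the pseudocount (0.25 and 4 CPM), scaling, variance prior, sample weights, voom, a replicate block, leaving out each library in turn and a threshold of 0.1. Besides the 10 members, the text names the first 3 genes by p of each of 8 pathway lists and the 3 genes most like a member; any other gene was chosen after its values were seen. Not all genes named by this rule are reported here. Of 15 marker lists the sums and counts are given, with no test of a list. Coordinates are from GENCODE M21 (mm10) and promoters from RefSeq. Python 3.11.15, pandas 2.3.3, numpy 2.4.6, scipy 1.17.1 and matplotlib 3.10.9 were used.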

Additional observations from a re-analysis of the deposited data

Results flagged for a closer look

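In the control-LNP group, 2 of the 15 sets of values examined (10 members and 5 ratios) had 1 library so far from the others that its gap to the nearest, divided by the range of the group, exceeded Dixon's 95% critical value for 4 samples. Chance alone gives about 1 such set in 20. For Treml4 the share was 0.951, the low library being control-LNP replicate 2 with 1 read against 41.2 to 49.8 CPM in the others. For Fcer1g it was 0.892, the same library being the highest at 909.6 CPM against 319.0 to 357 CPM.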

How the results depend on the processing

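The number of genes changed was 1957 (1306 higher, 651 lower). It was 3015 with quantile normalization, 7873 with pan-leukocyte scaling, 4343 with sample weights, 1060 with the replicate block, 4325 without control-LNP replicate 2 and with median centring, and 1387 to 4053 when 1 library was left out. Median centring gave 741 higher and 1249 lower, quantile normalization 1614 and 1401, and sample weights 2100 and 2243. The median of all genes was 0.15, and -0.98, -0.19, -0.28 and, with pan-leukocyte scaling, 3.35. The number of members changed was 5. It was 2 with voom, 3 with the replicate block, 3 to 7 when 1 library was left out, the lowest without ITA-LNP replicate 2, and 4 to 7 in the others. With pan-leukocyte scaling 4 members changed, and 2 to 8 when 1 library was left out. The labels share replicate numbers between groups, but the correlation of same-numbered deviations was 0.0053, -0.0105 and -0.0173, so the numbers were not taken to pair the libraries. With that block the calls of Csf1r (-2.38, adjusted p = 0.0570, limma) and Fcer1g (-2.73, adjusted p = 0.0527) were lost. Control-LNP replicate 4 has no ITA-LNP library of the same number. For both genes the log2 fold change with the block equalled that without control-LNP replicate 4. In the fit without that library both calls were kept (adjusted p = 0.0373 for Csf1r and 0.0203 for Fcer1g, limma). The cause of the changes with processing was not tested.

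Signs turned with pan-leukocyte scaling for Csf1r (1.34), Tyrobp (1.28), Fcer1g (1.07), Fcgr1 (2.40), Fcgr4 (0.47) and Itgam (1.41), which by construction raises genes against the leukocyte list. Lyz2 turned with median centring (-0.86). Fcgr1 turned without ITA-LNP replicate 1 (0.64) or control-LNP replicate 1 (0.79), and Fcgr4 on the leukocyte scale without ITA-LNP replicate 1 (-0.48) or 3 (-0.93), its range over the libraries left out being -0.93 to 2.68. The difference in the ratio of Lyz2 to Csf1r was 2.13 to 3.00 when 1 library was left out, where the smallest possible p is 0.0667 or 0.1. That of Treml4 to Ly6c2, which the added CPM sets in the ITA-LNP libraries and which is therefore not read, was 1.82 with 1 CPM added, 1.71 with 0.25 CPM and 1.71 with 4 CPM (exact p = 0.0571, 0.143 and 0.0286). The difference in Fcgr4 to Fcgr1 was -3.17 to 0.023 and that in Tyrobp to Fcer1g -0.39 to 0.86 over the libraries left out. Low counts limit Treml4 and Ly6c2 in the ITA-LNP libraries, at 2, 1 and 1 and at 6, 1 and 8 reads, and Plac8 had 11, 9 and 16. Fcgr1 had 1, 56 and 22 reads there and Fcgr4 53, 0 and 131, a wide spread between libraries.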

Other observations

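Erythroid and mast cell lists belong to no comparison above. The 9 erythroid markers in the table summed to 2551 to 4229 CPM with ITA-LNP and 12390 to 44821 CPM with control-LNP, with 4 of 8 tested markers lower, and the highest library was control-LNP replicate 1, which was also the highest for Csf1r, Ly6c2 and Fcgr1. The mast cell and basophil genes summed to 10.8 to 22.6 CPM with ITA-LNP. In the control-LNP libraries they were at 12.5 to 41.9 CPM in replicates 1, 3 and 4 and at 709.4 CPM in replicate 2, of which Hdc, the enzyme that makes histamine and which was named after its values were seen, gave 709.1 CPM. Neither of the 2 genes of that list that were tested passed. White adipocyte markers summed to 5954 to 7257 against 70.4 to 407 CPM, with 4 of 8 tested markers higher. Most of the ITA-LNP sums came from Fabp4, named after its values were seen, at 5589, 7040 and 6184 CPM in replicates 1 to 3. Adipoq and Cidec were at 0 reads in all control-LNP libraries. In ITA-LNP replicates 1 to 3 Adipoq had 52, 0 and 114 reads and Cidec 120, 130 and 0, so both overlapped between the groups. Lep was at 0 reads in all libraries of both groups.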
